A study of Mus musculus with 4 samples.

Results

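The 8 plasmablast effector genes followed here are *Sdc1*, *Slamf7*, *Igj*, *Mzb1*, *Txndc5*, *Fkbp11*, *Edem3* and *Pou2af1*. They were chosen by name, with earlier results of these data known, among the 41342 named genes of the count table. All 8 passed the filter on low values (50 counts or more on average), as did 11286 genes in all. RNA was sequenced from splenic B cells of 2 mouse lines of a 129 background, homozygous for a change in the *IgH* 3'RR, the enhancer region downstream of the heavy-chain constant genes. ΔleftPAL mice lack *hs3a*, *hs1,2* and the inverted repeats between them. In Δ*IRIS* mice these repeats on the left side are deleted as well, while *hs1,2* is put back and *hs3a* is put back in inverted orientation, so that every enhancer is kept. The remaining part of the 3'RR is shared by both lines, which were made from ES cells and freed of their selection cassette with cre. Each line gave 1 library of resting cells, taken as isolated, and 1 library of cells kept in culture with LPS, the bacterial lipopolysaccharide that drives B cells to divide and to secrete antibody, at 5 μg/ml over 48 h. Every library was made from B cells pooled over mice of a line. The wt libraries were not analysed here, so every value below sets one of the changed lines or one state against another.

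An activated B cell that turns into a plasmablast enlarges its endoplasmic reticulum and switches to secreting antibody. Its surface gains syndecan-1 (CD138), its secretory path gains the J chain that links IgM into polymers, and chaperones, oxidoreductases and quality-control enzymes rise with the load of heavy and light chains. The change is driven by the transcription factors Blimp-1, IRF4 and XBP1, whereas factors such as PAX5, BCL6 and BACH2 hold the B-cell state. B cells were isolated by removal of cells that carry CD43, the product of *Spn*. Plasma cells carry CD43, so this depletion is directed at them too, and how far it removed them from the resting libraries was not tested.

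The counts of named genes summed to between 23615496 and 29776108 per library, and 3 counts, the floor used for low values, corresponded to between 0.102 and 0.123 CPM (the count's share of a library, scaled with edgeR's TMM factors to a common size). With 1 library per group no difference within a line or within a state has a replicate check. The 95% intervals given with log2 ratios are exact Clopper-Pearson intervals of the counts and cover counting error only, and "rose" or "fell" is written only of a gene at least 2-fold apart. The 6 B-cell markers summed to 3855 CPM in resting and 2303 CPM in LPS-activated ΔleftPAL cells and to 3269 and 2464 CPM in Δ*IRIS* cells. This sum was thus lower with LPS in both lines. Summed markers of other cells were also higher at rest than with LPS. The 7 T-cell markers summed to 51.1 CPM in resting and 18.4 CPM in LPS-activated ΔleftPAL cells and to 43.8 and 17.2 CPM in Δ*IRIS* cells. In the LPS libraries 5 and 6 of the 7 were at or under 3 counts. A single gene, *Lck*, gave 487 of the 497 and 503 of the 504 counts of these LPS sums. The NK-cell, myeloid and erythroid sums likewise ranged from 7.15 to 37816 CPM at rest and from 0.068 to 117 CPM with LPS. The erythroid sum also differed between the lines, at 37816 CPM in ΔleftPAL and 26021 CPM in Δ*IRIS* cells at rest. With LPS it was 55.1 CPM in ΔleftPAL and 117 CPM in Δ*IRIS* cells. The part of these cells in any difference between resting and LPS-activated cells, or between the lines, was not tested.

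The stretches upstream of several of these genes are shown because XBP1, Blimp-1, IRF4 and the Oct factors are known to act through short sites in such DNA. RefSeq promoter windows (assembly GRCm38.p6, the mm10 build of the counts; 250 bases before to 50 bases after a start site) matched 7 of the 8 genes with 10 windows. *Mzb1* is named only. The 250 bases before the start are printed 5′ to 3′ on the gene's strand for *Igj*, which had the largest difference between the lines in LPS culture. They are also given for *Pou2af1* and *Txndc5*, whose windows hold a site of XBP1 and ATF6, and for *Fkbp11*, which had the highest LPS ratio in Δ*IRIS* cells. A further window of *Txndc5*, at the start of its principal transcript (chr13:38528485-38528734), and one of *Fkbp11* (chr15:98727628-98727877) lie in exons for 189 and 250 of their 250 bases and are not printed, although both hold CGTGG, a motif described after the sequences. The capitals mark each match to a searched motif on either strand.
Igj chr5:88527898-88528147 (minus strand): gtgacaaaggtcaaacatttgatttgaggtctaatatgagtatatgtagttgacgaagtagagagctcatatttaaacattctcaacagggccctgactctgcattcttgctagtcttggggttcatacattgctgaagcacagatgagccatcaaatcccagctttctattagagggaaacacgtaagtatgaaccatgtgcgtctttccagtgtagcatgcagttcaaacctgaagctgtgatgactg
Pou2af1 chr9:51213440-51213689 (plus strand): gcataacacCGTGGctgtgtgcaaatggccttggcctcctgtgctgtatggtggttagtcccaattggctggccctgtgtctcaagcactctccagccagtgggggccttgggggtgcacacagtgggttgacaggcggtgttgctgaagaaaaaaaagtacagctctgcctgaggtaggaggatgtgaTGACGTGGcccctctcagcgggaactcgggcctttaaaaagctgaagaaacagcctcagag
Txndc5 chr13:38528825-38529074 (minus strand): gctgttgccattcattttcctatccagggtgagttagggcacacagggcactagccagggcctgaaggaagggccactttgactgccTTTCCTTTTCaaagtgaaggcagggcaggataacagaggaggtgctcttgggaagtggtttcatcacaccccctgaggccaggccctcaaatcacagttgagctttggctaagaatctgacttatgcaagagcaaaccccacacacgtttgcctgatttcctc
Txndc5 chr13:38527915-38528164 (minus strand): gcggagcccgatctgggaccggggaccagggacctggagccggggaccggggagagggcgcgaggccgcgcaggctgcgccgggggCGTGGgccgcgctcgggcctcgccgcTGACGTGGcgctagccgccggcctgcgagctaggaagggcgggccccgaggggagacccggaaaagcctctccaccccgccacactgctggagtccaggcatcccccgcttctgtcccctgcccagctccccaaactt
Fkbp11 chr15:98728199-98728448 (minus strand): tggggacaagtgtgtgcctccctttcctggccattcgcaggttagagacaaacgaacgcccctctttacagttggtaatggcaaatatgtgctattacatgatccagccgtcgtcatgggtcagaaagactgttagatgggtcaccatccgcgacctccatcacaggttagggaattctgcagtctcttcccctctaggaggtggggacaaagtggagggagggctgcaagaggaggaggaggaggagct

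The site of XBP1 and ATF6, searched as TGACGTGG on both strands, was found in 0.676% of all 32851 windows of 300 bases and in 2 of the 10 windows of the plasmablast genes. It begins 61 bases before the *Pou2af1* start and 138 bases before the innermost of the 3 RefSeq starts of *Txndc5*. Its last bases overlap CGTGG, the reverse complement of CCACG, the short part of the ER stress element. CCACG was present in 32.8% of all windows and in 6 of the 10, which belong to 5 genes (*Edem3*, *Fkbp11*, *Pou2af1*, *Sdc1* and *Txndc5*). The full ER stress element (0.119% of all windows) and the octamer ATGCAAAT (1.74%), the site of the Oct factors that the *Pou2af1* product binds to, were in none of the 10. The interferon response element, read by IRF factors and Blimp-1 and searched as a pair of GAAA parted by any 2 bases, was in 3.44% of all windows and in 1 of the 10, where it begins 163 bases before the outermost RefSeq start of *Txndc5*. These matches describe letters in a window and say nothing of binding.

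The first comparison asked how each gene differed between LPS-activated and resting cells of one line. In ΔleftPAL cells 6 of the 8 genes rose at least 2-fold, where 21.3% of all genes tested did and 37.8% were 2-fold apart in either direction, and none fell. The 6 were *Fkbp11*, *Mzb1*, *Txndc5*, *Igj*, *Edem3* and *Pou2af1*. In Δ*IRIS* cells 3 of the 8 rose, where 22.8% of all genes tested did and 41.0% were 2-fold apart in either direction, and none fell. The 3 were *Fkbp11*, *Mzb1* and *Txndc5*. *Pou2af1* and *Edem3* lay just under the threshold there with ratios of 1.99 and 1.94, and *Igj* was at 1.83. The median log2 ratio of the 8 genes was 1.30 in ΔleftPAL and 0.97 in Δ*IRIS* cells, beside 0.12 and 0.13 over all genes tested. The counting interval lay above 0 for 8 of the 8 in ΔleftPAL cells (47.1% of all genes tested, with 38.5% below 0) and for 6 of the 8 in Δ*IRIS* cells (48.3%), where that of *Sdc1* lay below 0 (38.6%). With the authors' kallisto estimated counts 6 of 8 genes rose in Δ*IRIS* cells, where 25.6% of all genes did. With kallisto TPM 4 of 8 rose in ΔleftPAL cells, where 13.9% of all genes were higher and 22.6% lower, beside 21.3% and 16.5% in the counts. In a bulk library, fewer cells of a type and less RNA per cell cannot be told apart.

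The lines can also serve as a pair of blocks for the LPS difference, in an additive edgeR quasi-likelihood model of line and state with 1 residual degree of freedom, which was added after the data were seen. Its residual is the unequal LPS ratio of the 2 lines and not the spread between mice. In this model 6 of the 8 genes were higher with LPS at an adjusted p under 0.05, with no limit on fold, as were 36.4% of all genes tested, and 27.9% were lower. They were *Mzb1* (log2 ratio 2.44, edgeR adjusted p 0.000196), *Txndc5* (1.55, 0.00053), *Pou2af1* (1.05, 0.00113), *Fkbp11* (2.81, 0.0015), *Edem3* (1.07, 0.00152) and *Igj* (1.14, 0.0026), each higher with LPS in both lines. Of these, *Fkbp11* passed the filter on low values through its LPS libraries, where it is high. It therefore had to differ, and its p is not read as a result. *Slamf7* (0.16, edgeR adjusted p 0.328) and *Sdc1* (0.03, 0.932) did not pass.

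**Figure D1:**
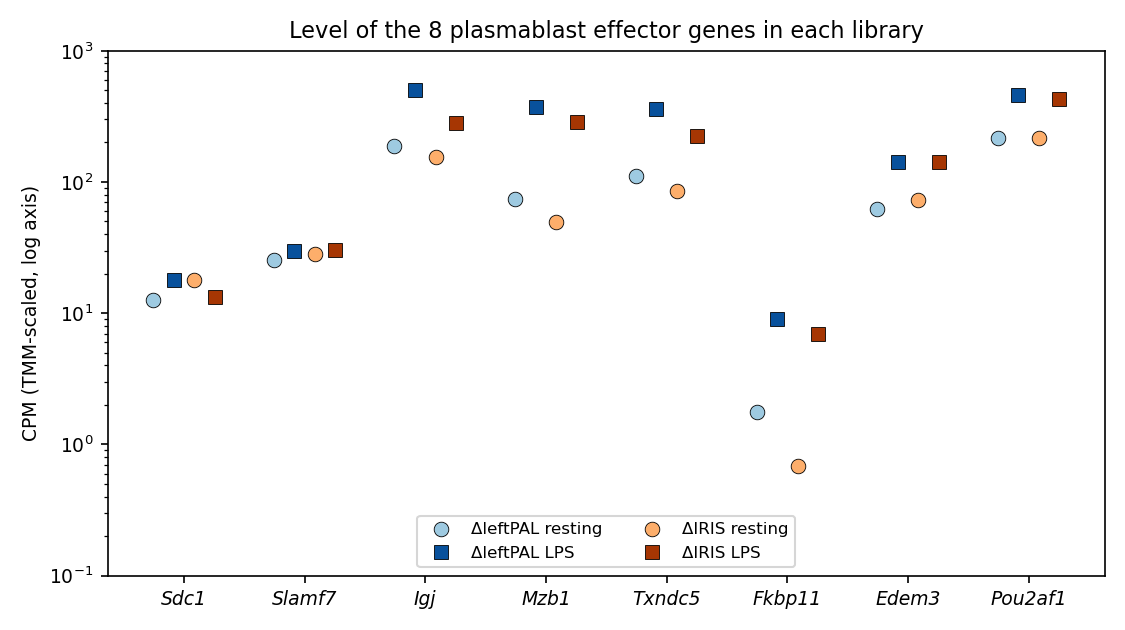
Level of each of the 8 genes in the 4 libraries, in TMM-scaled CPM on a log axis; circles are resting and squares LPS-activated cells, blue is ΔleftPAL and orange Δ*IRIS*, and each point is 1 library. The squares of *Mzb1*, *Txndc5* and *Fkbp11* lie at least 2-fold above the circles of the same line, whereas the 4 points of *Slamf7* lie between 25.3 and 30.1 CPM.

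The surface proteins stood apart from the other members. *Sdc1* (ENSMUSG00000020592, chr12:8771323-8793715, plus strand, 7 exon blocks) encodes syndecan-1, the heparan sulphate proteoglycan that is the standard plasma-cell surface marker. It was counted at 12.7 CPM in resting and 17.9 CPM in LPS-activated ΔleftPAL cells, and at 17.9 CPM in resting and 13.2 CPM in LPS-activated Δ*IRIS* cells. The order of resting and activated cells was thus opposite in the lines. LPS over resting gave a log2 value of 0.50 (95% interval 0.29 to 0.71) in ΔleftPAL and -0.44 (-0.63 to -0.24) in Δ*IRIS* cells, and neither reached 2-fold. The log2 ratio of these ratios, Δ*IRIS* over ΔleftPAL, was -0.93 (-1.21 to -0.65, from the Poisson variance of the counts), the largest negative value of the 8 genes. These are 309 to 519 counts per library, and the difference was not tested against any spread between mice. Per kb of exonic sequence *Sdc1* stood between the 29.9th and the 40.2nd percentile of the genes tested, so its RNA was of moderate to low level in all 4 libraries.

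*Slamf7* (ENSMUSG00000038179, chr1:171634925-171649007, minus strand, 7 exon blocks) encodes a homophilic receptor of the SLAM family carried by plasma cells and NK cells. Its level was 25.3 and 30.0 CPM in ΔleftPAL cells at rest and with LPS and 28.4 and 30.1 CPM in the corresponding Δ*IRIS* cells, the narrowest range of the 8 genes. LPS over resting gave a log2 ratio of 0.25 (0.10 to 0.40) in ΔleftPAL and 0.08 (-0.06 to 0.22) in Δ*IRIS* cells. Markers of NK cells, which also carry this receptor, summed to 10.5 and 7.15 CPM in the resting libraries of ΔleftPAL and Δ*IRIS* and to 0.148 and 0.068 CPM with LPS, and their part in the resting level of *Slamf7* was not tested. The count model holds 1082 exonic bases of the gene, the length of a single one of the 5 transcripts in the kallisto table. The *Slamf7* counts were 0.470 to 0.538 of the kallisto estimate, whereas those of the other 7 genes were 0.977 to 1.05 of it.

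*Igj* (ENSMUSG00000067149, chr5:88520512-88527891, minus strand, 4 exon blocks), also named *Jchain*, encodes the small chain that joins IgM pentamers and IgA dimers. Its level was 188 CPM in resting and 501 CPM in LPS-activated ΔleftPAL cells, and 155 and 283 CPM in the Δ*IRIS* libraries. It rose 2.67-fold in ΔleftPAL cells (log2 ratio 1.42, 1.37 to 1.46) and stood 1.83-fold higher in Δ*IRIS* cells (0.87, 0.82 to 0.93). The highest level of *Igj* was in LPS-activated ΔleftPAL cells and the lowest in resting Δ*IRIS* cells. The ratio of ratios was -0.54 (-0.61 to -0.47) on the log2 scale, again without a test. Set against the heavy chain it is assembled with, *Igj* gave 56.0 and 42.8 counts per 1000 *Ighm* counts in ΔleftPAL cells at rest and with LPS and 51.1 and 35.4 in Δ*IRIS* cells. Relative to *Ighm*, *Igj* was therefore lower with LPS in both lines.

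*Mzb1* (ENSMUSG00000024353, chr18:35647266-35649367, minus strand, 4 exon blocks) encodes pERp1, an endoplasmic reticulum protein that helps assemble and secrete IgM. Its level went from 73.6 to 372 CPM in ΔleftPAL cells and from 49.3 to 287 CPM in Δ*IRIS* cells. *Mzb1* rose 5.05-fold (log2 ratio 2.34, 2.27 to 2.41) and 5.82-fold (2.54, 2.46 to 2.62), respectively, and per kb it was at the 98.5th and 98.3rd percentiles of the genes tested in the LPS libraries. Against *Ighm*, the order was the reverse of that of *Igj*: *Mzb1* gave 21.9 and 31.8 counts per 1000 *Ighm* counts in ΔleftPAL cells at rest and with LPS and 16.3 and 35.8 in Δ*IRIS* cells. The ratio of ratios was 0.20 (0.09 to 0.31), so the LPS ratio of *Mzb1* was slightly higher in Δ*IRIS* cells, unlike that of *Igj*.

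Among the folding enzymes, *Txndc5* (ENSMUSG00000038991, chr13:38500273-38528824, minus strand, 12 exon blocks) encodes a protein disulphide isomerase. It was at 112 CPM in resting and 363 CPM in LPS-activated ΔleftPAL cells and at 85.2 and 226 CPM in Δ*IRIS* cells. The gene rose 3.24-fold in ΔleftPAL (log2 ratio 1.70, 1.64 to 1.76) and 2.65-fold in Δ*IRIS* cells (1.41, 1.34 to 1.47). *Fkbp11* (ENSMUSG00000003355, chr15:98724373-98728198, minus strand, 6 exon blocks) encodes a peptidyl-prolyl isomerase of the endoplasmic reticulum that is abundant in secretory tissues. It was the lowest of the 8 genes, at 1.76 CPM (43 counts) and 9.06 CPM (244 counts) in ΔleftPAL cells at rest and with LPS and at 0.688 CPM (20 counts) and 6.99 CPM (205 counts) in Δ*IRIS* cells. *Fkbp11* rose 5.14-fold in ΔleftPAL (log2 ratio 2.36, 1.89 to 2.87) and 10.2-fold in Δ*IRIS* cells (3.35, 2.68 to 4.09), the highest value of the 8 genes in Δ*IRIS* cells, whereas in ΔleftPAL cells its interval held the value of *Mzb1* (2.34). *Fkbp11* passed the filter on low values through its LPS libraries, where it is high, and a gene that passes in this way had to differ. Leaving it out, 5 of the other 7 rose in ΔleftPAL cells, where 21.3% of all genes tested did. In Δ*IRIS* cells 2 of these 7 rose, where 22.8% of all genes tested did, so that count is near the background. The width of the *Fkbp11* intervals follows from the low counts at rest. The ratio of ratios was 0.98 with an interval of 0.17 to 1.79.

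*Edem3* (ENSMUSG00000043019, chr1:151755371-151822051, plus strand, 21 exon blocks) encodes a mannosidase-like protein that marks misfolded glycoproteins for degradation. Its level was 62.5 and 141 CPM in ΔleftPAL cells at rest and with LPS and 72.8 and 141 CPM in Δ*IRIS* cells. It rose 2.26-fold in ΔleftPAL cells (log2 ratio 1.18, 1.09 to 1.26) and stood 1.94-fold higher in Δ*IRIS* cells (0.96, 0.88 to 1.03). The same level was thus reached in culture from a somewhat higher level at rest in Δ*IRIS* cells. *Pou2af1* (ENSMUSG00000032053, chr9:51213690-51240079, plus strand, 5 exon blocks) encodes OCA-B, the B-cell coactivator of the octamer-binding Oct factors. It was counted at 217 CPM at rest in both lines, and at 464 CPM in ΔleftPAL and 431 CPM in Δ*IRIS* cells with LPS. It rose 2.14-fold in ΔleftPAL cells (1.10, 1.05 to 1.14), and its ratio of 1.99 in Δ*IRIS* cells (0.99, 0.95 to 1.04) has an interval that spans 2-fold. *Pou2af1* and *Edem3* had the most similar pattern of any pair of the 8 genes, with a root-mean-square difference of 0.09 between their centred log2 CPM over 4 libraries, whereas *Sdc1* and *Fkbp11* were farthest apart at 1.56.

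The second comparison set Δ*IRIS* against ΔleftPAL cells of the same state. At rest 1 of the 8 genes was at least 2-fold apart, *Fkbp11*, which was lower in Δ*IRIS* cells. In this comparison 1.36% of all genes tested were at least 2-fold lower, 2.41% at least 2-fold higher and 3.77% either. *Fkbp11* was 2.56-fold lower (log2 ratio -1.36, -2.20 to -0.56), a difference of 43 against 20 counts that fall short of the 50-count minimum, which the gene passed through its LPS libraries. The difference falls under 2-fold once a prior of 0.5 CPM is added. The other 3 secretory-path genes with an interval below 0 were *Mzb1* at -0.58 (-0.68 to -0.48), *Txndc5* at -0.39 (-0.47 to -0.31) and *Igj* at -0.28 (-0.34 to -0.22). The 3 genes with an interval above 0 were *Sdc1* at 0.50 (0.29 to 0.70), *Edem3* at 0.22 (0.12 to 0.31) and *Slamf7* at 0.17 (0.02 to 0.32). *Pou2af1* had an interval that held 0 (-0.05 to 0.05). Such intervals lay below 0 for 27.0% and above 0 for 30.3% of all genes tested, so that a counting interval apart from 0 was common at these depths. The median of the 8 genes was -0.14, beside 0.00 over all genes tested.

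In LPS culture 0 of the 8 genes were 2-fold apart, where 2.15% of all genes tested were at least 2-fold lower in Δ*IRIS* cells and 0.833% at least 2-fold higher, 2.99% in all. The values of 6 of the 8 were nevertheless below 0 beyond counting error, as were those of 19.4% of all genes tested, and none was above 0 beyond it, where 27.6% of all genes tested were. *Igj* was 1.77-fold lower in Δ*IRIS* cells (log2 ratio -0.82, -0.86 to -0.78), at the 3.23rd percentile of the log2 ratios of all genes tested. *Txndc5* was 1.61-fold lower (-0.68, -0.73 to -0.64), at the 4.55th percentile. The remaining values were -0.44 (-0.63 to -0.24) for *Sdc1*, -0.38 (-0.42 to -0.33) for *Mzb1*, -0.37 (-0.65 to -0.10) for *Fkbp11* and -0.11 (-0.14 to -0.07) for *Pou2af1*. *Edem3* (-0.07 to 0.06) and *Slamf7* (-0.14 to 0.14) had intervals that held 0. The median was -0.37, beside 0.03 over all genes tested, and whether this exceeds the spread between mice cannot be told from 1 library per group. In the additive edgeR model of line and state, the resting and LPS libraries of a line stand in for its replicates. They are 2 states of the cells of a line, so the p-values do not measure the spread between mice. There, 0 of the 8 genes passed an adjusted p of 0.05 for Δ*IRIS* over ΔleftPAL (adjusted p 0.707 to 0.978), and 1 of all 11286 genes did. Without adjustment 3 of the 8 were under 0.05, *Txndc5* (log2 ratio -0.54), *Igj* (-0.55) and *Mzb1* (-0.48), as were 792 of all genes. Summed over the 8 genes, the level was 692 and 625 CPM at rest and 1898 and 1418 CPM with LPS in ΔleftPAL and Δ*IRIS* cells. *Igj*, *Mzb1*, *Pou2af1* and *Txndc5* together made up 80.9% to 89.5% of this sum in the 4 libraries.

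**Figure D2:**
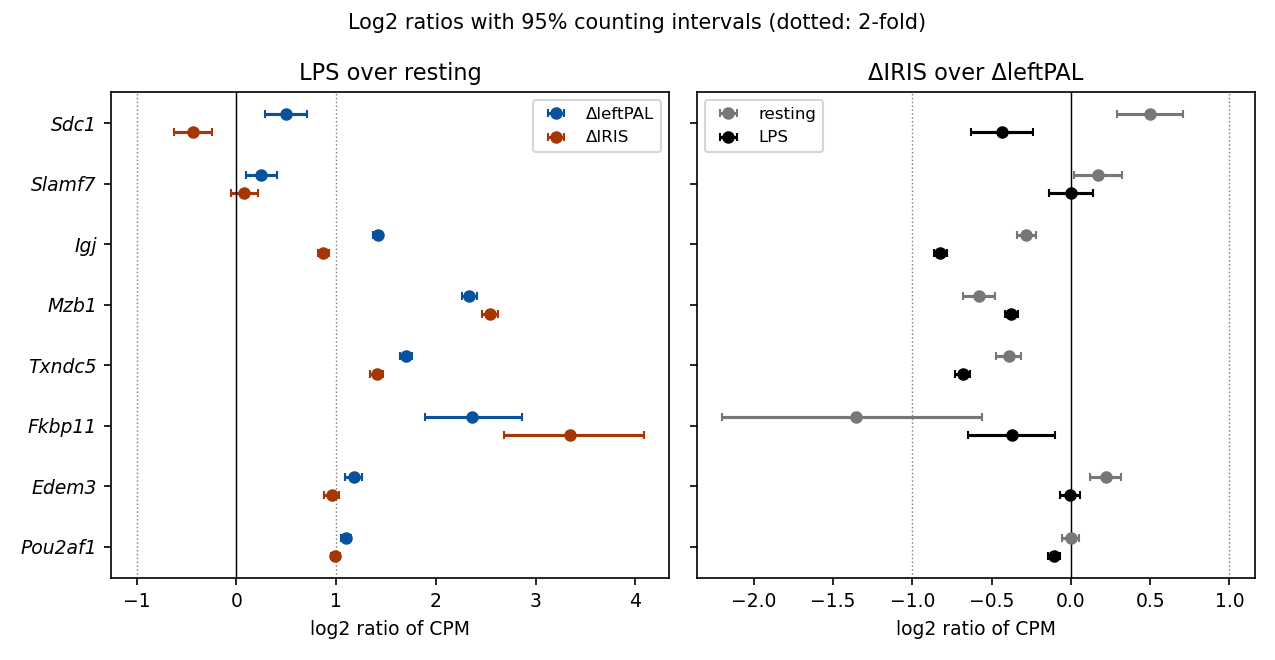
Log2 ratios of CPM with 95% counting intervals for the 8 genes, LPS over resting on the left (blue ΔleftPAL, orange Δ*IRIS*) and Δ*IRIS* over ΔleftPAL on the right (grey resting, black LPS); dotted lines mark 2-fold. *Sdc1* lies on opposite sides of 0 in the lines on the left, and on the right *Fkbp11* at rest is the single point past 2-fold, with an interval of -2.20 to -0.56.

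The transcription factors that drive the plasma-cell state were examined next, on lists chosen with earlier results of these data known. Of 7 plasma-cell factors tested, 5 rose in either line and none fell, where of all genes tested 21.3% rose and 16.5% fell in ΔleftPAL cells and 22.8% rose and 18.2% fell in Δ*IRIS* cells. The median log2 ratio was 1.49 in ΔleftPAL and 1.21 in Δ*IRIS* cells, beside 0.12 and 0.13 over all genes tested. *Prdm1*, which encodes Blimp-1, went from 4.54 to 76.0 CPM in ΔleftPAL cells and from 7.22 to 43.9 CPM in Δ*IRIS* cells, log2 ratios of 4.06 and 2.60. *Xbp1*, the factor that widens the secretory path, went from 61.9 to 389 CPM and from 64.4 to 260 CPM (2.65 and 2.01). *Ell2*, an elongation factor that favours secreted immunoglobulin RNA, went from 30.3 to 157 CPM and from 38.2 to 102 CPM (2.37 and 1.42). *Irf4* was at 285 and 458 CPM in ΔleftPAL cells at rest and with LPS and at 604 and 392 CPM in Δ*IRIS* cells, so the order of its states differed between the lines as that of *Sdc1* did. Between the lines in LPS culture none of the 7 was 2-fold apart, where 2.99% of all genes tested were. The median was -0.55, beside 0.03 over all genes tested, with *Prdm1* at -0.79, *Ell2* at -0.62 and *Xbp1* at -0.58. At rest 1 of the 7 was, *Irf4*, which was higher in Δ*IRIS* cells (1.08), where 2.41% of all genes tested were at least 2-fold higher.

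Of 9 factors of B-cell identity, 4 fell and none rose in ΔleftPAL cells, and 5 fell and 1 rose in Δ*IRIS* cells, where 16.5% and 18.2% of all genes tested fell and 21.3% and 22.8% rose. The 3 lowest log2 ratios in ΔleftPAL cells were those of *Bcl6* (-2.20), the germinal-centre repressor, *Ciita* (-1.92), the regulator of MHC class II genes, and *Foxo1* (-1.20), with log2 ratios of -1.75, -1.44 and -2.13 in Δ*IRIS* cells. *Pax5*, which Blimp-1 represses in plasma cells, was at -0.49 and -0.59 and did not reach 2-fold. The gene that rose in Δ*IRIS* cells was *Id3*, an inhibitor of E proteins (1.31, and 0.48 in ΔleftPAL cells).

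More than 10 partners of the members in the endoplasmic reticulum rose in each line, as *Mzb1* and *Txndc5* did. Of 25 folding and quality-control partners tested, 16 rose and none fell in ΔleftPAL cells, and 13 rose and 1 fell in Δ*IRIS* cells, where 21.3% and 22.8% of all genes tested rose and 16.5% and 18.2% fell. The medians were 1.36 and 1.09, beside 0.12 and 0.13 over all genes tested. *Hsp90b1*, the chaperone GRP94, went from 257 to 1223 CPM in ΔleftPAL and from 366 to 1188 CPM in Δ*IRIS* cells (2.25 and 1.70). *Hspa5*, the chaperone BiP that holds free heavy chains, was at 477 and 1100 CPM and at 753 and 1108 CPM (1.21 and 0.56), so the cultured levels were alike and the resting ones were not. *Derl3* (2.96 and 2.57), a part of the retrotranslocation channel, *Creld2* (2.67 and 2.15) and *Manf* (2.66 and 2.29), both stress-induced proteins of the reticulum, had the largest ratios of the list in ΔleftPAL cells. *Dnajb9*, a BiP cochaperone, was the gene that fell in Δ*IRIS* cells (-1.89, and -0.82 in ΔleftPAL cells). None of the 25 was 2-fold apart between the lines in either state, where 3.77% of all genes tested were at rest and 2.99% with LPS, so a count of 0 is near that background. In LPS culture the median was -0.13, beside 0.03 over all genes tested.

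The secretory route showed a similar count. Of 26 genes tested, 18 rose in ΔleftPAL and 16 in Δ*IRIS* cells and none fell, where 21.3% and 22.8% of all genes tested rose and 16.5% and 18.2% fell. The medians were 1.41 and 1.21, beside 0.12 and 0.13. *Sec24d*, a cargo adaptor of COPII vesicles, was at 2.96 and 2.28, *Ssr2*, a subunit of the translocon-associated complex, at 2.38 and 1.96, and *Lman1*, a cargo receptor, at 1.91 and 2.30. Of the 3 immunoglobulin constant genes tested, *Ighm* and *Igkc* rose in each line and *Iglc2* did not (0.26 and 0.09). *Ighm* went from 3355 to 11707 CPM in ΔleftPAL cells and from 3025 to 8011 CPM in Δ*IRIS* cells, and *Igkc* from 1196 to 3657 CPM and from 896 to 1967 CPM. In LPS culture the Δ*IRIS* over ΔleftPAL values were -0.55 for *Ighm* and -0.89 for *Igkc*, on the same side of 0 as *Igj* and *Txndc5*.

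Close relatives of the members differed from them in part, in family lists that include the members themselves. Of the EDEM family, *Edem1* rose from 113 to 370 CPM and from 110 to 275 CPM (1.71 and 1.32), above the ratios of *Edem3*. The remaining relative, *Edem2*, lay below *Edem3* in ΔleftPAL and Δ*IRIS* cells (0.51 and 0.48) and did not reach 2-fold. The 9 genes of the disulphide isomerase family held 5 that rose in each line (21.3% and 22.8% of all genes tested), and *Pdia6* (2.10 and 1.81) exceeded *Txndc5*. *Fkbp2*, the other FKBP of the reticulum that was tested, rose less than *Fkbp11* (1.22 and 1.15). Among the partners of OCA-B, *Pou2f2*, which encodes Oct-2, was at 44.3 and 72.1 CPM in ΔleftPAL and at 40.8 and 78.1 CPM in Δ*IRIS* cells (0.70 and 0.94) and did not reach 2-fold. The surface families held falls. *Sdc3*, another syndecan, fell from 60.9 to 7.35 CPM and from 71.7 to 5.63 CPM (-3.05 and -3.67). Of 9 SLAM family genes tested, 4 fell in ΔleftPAL and 3 in Δ*IRIS* cells (16.5% and 18.2% of all genes tested) and none rose, so that *Slamf7* was not among the genes of its family that moved. *Slamf8*, known from myeloid cells, had 126 and 290 counts at rest in ΔleftPAL and Δ*IRIS* cells and 0 in either LPS library, at least 46.3-fold and 97.5-fold lower against 3 counts per library. It is counted among the falls of the family in both lines. It passed the filter on low values only through its resting libraries, where it is high, so it had to fall. *Cd244*, a receptor of NK and myeloid cells, fell by log2 ratios of -2.25 and -3.52. The 7 myeloid markers likewise summed to 366 and 481 CPM at rest and to 14.2 and 20.03 CPM with LPS in ΔleftPAL and Δ*IRIS* cells, and the part of such cells in these falls was not tested. Of the 9 other plasma-cell surface genes tested, 2 rose and 3 fell in each line, where 21.3% and 22.8% of all genes tested rose and 16.5% and 18.2% fell. This list also held *Tnfrsf17*, which did not pass the filter on low values. It had 8 and 13 counts in ΔleftPAL cells at rest and with LPS and 3 and 2 counts in Δ*IRIS* cells. *Tnfrsf13b*, the receptor TACI, went from 131 to 334 CPM and from 96.8 to 330 CPM, whereas *Cxcr4*, a receptor for homing to bone marrow, went from 171 to 45.8 CPM and from 475 to 42.5 CPM. *Spn*, whose product CD43 was the target of the depletion, rose from 22.0 to 65.6 CPM and from 12.5 to 75.2 CPM (1.58 and 2.59).

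**Figure D3:**
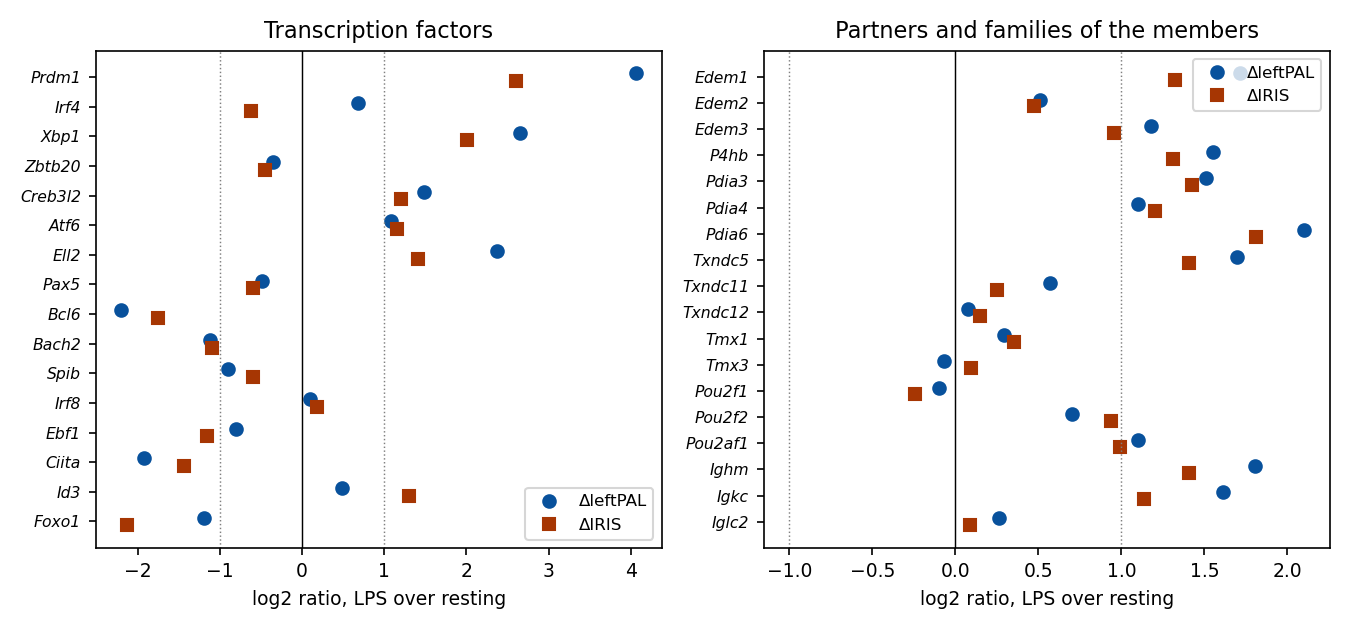
Log2 ratio of LPS over resting for transcription factors (left) and for partners and relatives of the members (right), with ΔleftPAL as blue circles and Δ*IRIS* as orange squares, 1 pair of libraries each, and dotted lines at 2-fold. *Prdm1* is the farthest point to the right at 4.06 in ΔleftPAL cells, and *Irf4* lies on opposite sides of 0 in the lines at 0.69 and -0.62.

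The kallisto table held 23 transcripts of the 8 genes, and *Mzb1*, *Fkbp11* and *Pou2af1* had 1 each. The make-up of *Txndc5* differed between states. Its principal transcript, ENSMUST00000035988, which starts at chr13:38528490, made up 71.8% and 77.9% of the gene's TPM in ΔleftPAL cells at rest and with LPS and 74.4% and 77.04% in Δ*IRIS* cells. The transcript ENSMUST00000162075, which starts outermost at chr13:38528824, just downstream of the window with the interferon response element, went from 6.85% to 11.9% and from 5.36% to 11.5%. Its estimated counts were 186 and 1162 in ΔleftPAL and 132 and 761 in Δ*IRIS* cells, log2 ratios of 2.62 and 2.68 that exceed those of the whole gene. The transcript ENSMUST00000160653, which starts at chr13:38527914, just downstream of the window with the TGACGTGG match, went from 17.5% to 8.94% and from 17.8% to 9.50%, with log2 ratios of 0.86 and 0.66 for its estimated counts of 467 and 860 and of 432 and 618. Among these 3 transcripts the order of the ratios was the same in each line. The remaining one, ENSMUST00000160046, starts farther inside the gene at chr13:38505942 and made up 1.26% to 3.92% of the TPM. Its log2 ratios of 0.18 and 1.23 placed it below ENSMUST00000160653 in ΔleftPAL cells and above it in Δ*IRIS* cells.

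*Slamf7* also had a mixed make-up. Its longest transcript of 3975 bases (ENSMUST00000192195) made up 38.1% and 26.4% of the gene's TPM in ΔleftPAL cells at rest and with LPS and 34.3% and 28.0% in Δ*IRIS* cells. The transcript that the count model matches in length, ENSMUST00000111276, was at 24.3% and 38.1% and at 33.3% and 36.2%. The share of the former was lower, and that of the latter higher, with LPS in both lines. For *Sdc1*, the better covered of its transcripts (ENSMUST00000020911) had estimated counts of 199 and 336 in ΔleftPAL and 420 and 306 in Δ*IRIS* cells, the same opposite order as the whole gene. ENSMUST00000171158 did not share this order, with estimated counts of 101 and 141 in ΔleftPAL and 74.6 and 74.1 in Δ*IRIS* cells, log2 ratios of 0.46 and 0.14. *Edem3* was carried mainly by ENSMUST00000059498, at 78.8% and 84.1% of its TPM in ΔleftPAL and 84.0% and 86.3% in Δ*IRIS* cells.

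**Figure D4:**
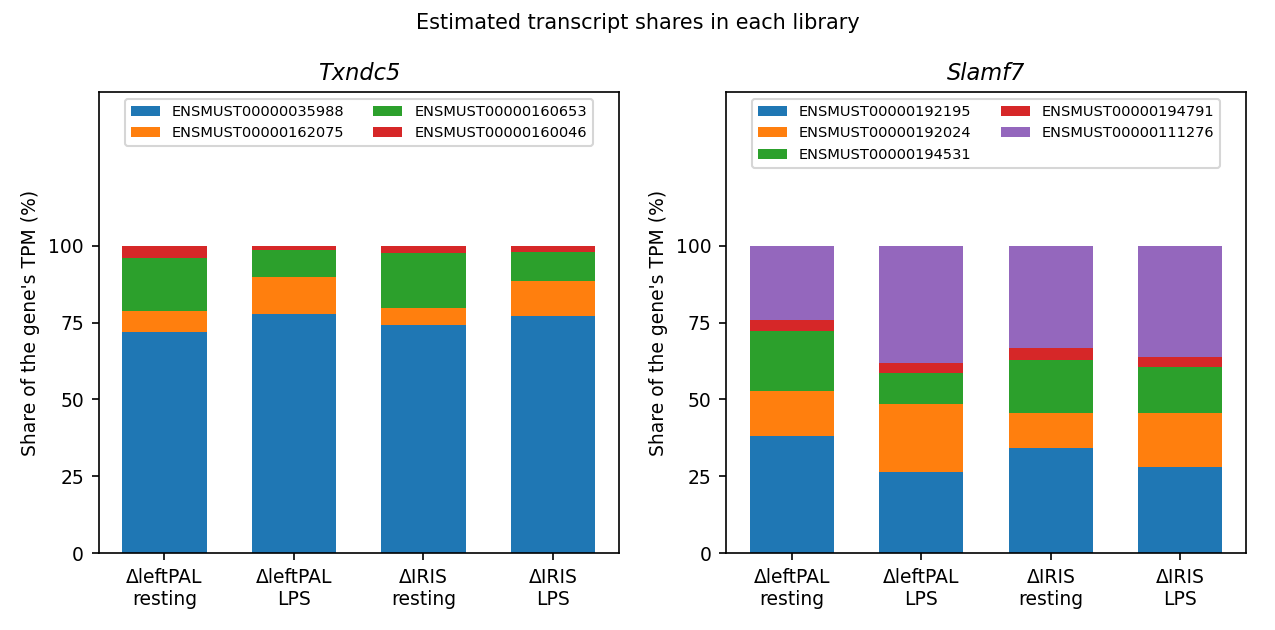
Share of each transcript in the summed TPM of *Txndc5* (left) and *Slamf7* (right) in the 4 libraries, in percent, with 1 bar per library and 1 colour per transcript. In *Txndc5* the share of ENSMUST00000160653 (green) is 17.5% and 17.8% at rest and 8.94% and 9.50% with LPS in ΔleftPAL and Δ*IRIS* cells, and in *Slamf7* the share of ENSMUST00000111276 (purple) is higher with LPS in both lines.

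For each member the 3 genes with the most similar pattern over the 4 libraries were sought, by the root-mean-square difference of centred log2 CPM. The nearest genes of *Igj* were *Igkv8-16* (0.024), *C920025E04Rik* (0.044) and *Igkv8-21* (0.055), and those of *Txndc5* were *Ighv14-1* (0.068), *Igkv4-53* (0.073) and *AU020206* (0.073), so immunoglobulin variable segments were among the nearest of both. *Mzb1* was nearest to *Hist2h2aa1* (0.034), *Pik3r6* (0.066) and *Hist1h4a* (0.076), and *Fkbp11* to *Hist1h2br* (0.111), *Gm12678* (0.173) and *Hist1h2bc* (0.230), which places histone genes next to each. *Sdc1* was nearest to *Igkj1* (0.042), *Supt7l* (0.053) and *Rrad* (0.053). The patterns of *Slamf7* (*Srsf6* 0.004, *Gapvd1* 0.009, *Sepsecs* 0.013), *Edem3* (*Bag1* 0.014, *Mrfap1* 0.020, *Dbr1* 0.022) and *Pou2af1* (*Timm22* 0.015, *Ndufb10* 0.025, *Rpl10* 0.025) had closer neighbours. With 4 libraries, such likeness is a description of these points alone.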

How the data were processed

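Total RNA of CD43-depleted splenic B cells was freed of ribosomal RNA and sequenced as stranded paired reads of 150 nt. The authors mapped the reads with STAR 2.4.0a to mm10, took genes from Ensembl release 77, and deposited raw counts per gene name from featureCounts (Subread 1.4.6-p1), stranded and with multi-mapping reads counted at their primary alignment. Genes that share sequence, such as immunoglobulin segments and histones, are therefore uncertain. The authors also deposited estimated counts and TPM per transcript from kallisto 0.42.3, whose index is not given in the sources used here. The annotation column names of the TPM table are shifted against their content, so rows were read by transcript identifier.

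The unnamed row (0.00876% to 0.0264% of counts) was left out. CPM were computed with TMM factors (0.970 to 1.03) from edgeR 4.0.16 in R 4.3.3, and ratios in Python 3.11.15 with scipy 1.17.1, with counts under 3 set at 3. Within a line or a state, 1 library per group leaves no residual degrees of freedom, so no p-value is given there. After the data were seen, an edgeR quasi-likelihood model with line and state as terms (1 residual degree of freedom, Benjamini-Hochberg adjustment over 11286 genes) was added. A gene was called when at least 2-fold apart, over genes that averaged 50 counts or more. The ratio of ratios used the Poisson variance on the log scale. The steps were tested on simulated data. The members and lists were chosen with earlier results of these data known. Genes named are the members, their direct partners, up to 3 genes per list and direction with the largest change, and the 3 nearest pattern neighbours of each member. *Edem1*, *Edem2*, *Fkbp2*, *Pax5*, *Iglc2* and *Tnfrsf17* were named after their values were seen. The labels and the study's methods describe the pooling of mice differently. Alternatives were the kallisto tables, size factors of DESeq2 1.42.0, total counts as library sizes, TMM factors without immunoglobulin genes, a prior of 0.5 CPM, other count minimums and other thresholds. Protein sequences were not analysed here.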

Additional observations from a re-analysis of the deposited data

Results flagged for a closer look

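*Sdc1* was the one member whose 2 libraries moved one way in ΔleftPAL cells (log2 ratio of LPS over resting 0.50) and the opposite way in Δ*IRIS* cells (-0.44). The log2 ratio of these ratios was -0.93, with a counting interval of -1.21 to -0.65. With 1 library per group this difference was not tested. The direction was the same under the other scalings and in the kallisto tables, which ranged from 0.16 to 0.61 in ΔleftPAL and from -0.98 to -0.27 in Δ*IRIS* cells. The prior of 0.5 CPM was not applied to single genes. The transcript ENSMUST00000171158 did not share the opposite order (0.46 in ΔleftPAL and 0.14 in Δ*IRIS* cells).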

How the results depend on the processing

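Blocking LPS against resting by line, in the additive edgeR model added after the data were seen, gave 6 of 8 members, all higher with LPS. Of all genes tested, 36.4% were higher and 27.9% lower in that model. The 6 members include *Fkbp11*, which passed the filter on low values through its LPS libraries and had to differ. For Δ*IRIS* over ΔleftPAL, blocked by state, the model gave 0 of 8, with the 2 states of a line in the place of replicates. Libraries of 1 group could not be paired by replicate, as each group holds 1 library. Of 32 member log2 ratios, 4 changed sign under another scaling or in a kallisto table, all of them at 0.08 or nearer to 0 in the values reported (*Edem3* and *Slamf7* between the lines in LPS culture, *Pou2af1* between the lines at rest, and *Slamf7* for LPS in Δ*IRIS* cells). The largest shift was 0.093 by scaling and 0.54 by the kallisto tables, the latter for *Sdc1* in Δ*IRIS* cells. Of the 8 members, those called for LPS numbered 2 in ΔleftPAL cells at 4-fold (6.15% of all genes higher), and in Δ*IRIS* cells 6 at 1.5-fold (34.9%) and 6 with kallisto estimated counts (25.6%). Between the lines at rest they numbered 0 with a prior of 0.5 CPM (1.02% of all genes lower) and 0 at 4-fold (0.133%), and in LPS culture 2 at 1.5-fold (5.64% lower). Over all genes, the calls in either direction were 4267 and 4623 for LPS in ΔleftPAL and Δ*IRIS* cells, and 6963 and 7539 with no filter on low counts. Between the lines they were 425 at rest, with 1663 under no filter, 961 at a mean of at least 10 and 206 at a mean of at least 200. In LPS culture they were 337, with 1278 under no filter, 799 at a mean of at least 10, 148 at a mean of at least 200 and 223 with the prior. More genes are tested under a looser filter, and the cause of the other changes was not tested. Counting error limits *Fkbp11* most, with 20 to 244 counts per library.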
